A study of Mus musculus with 10 samples.

Results

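The unfolded protein response and endoplasmic reticulum (ER) folding genes are described here across 10 mouse tumours. The set lists 36 genes by symbol. Of these, 35 were found in the count table of 18603 genes, all 35 passed the low-count filter that left 15883 genes for testing, and Derl3 was not analysed here. By role, 13 of the 35 are ER chaperones and folding enzymes, and 4 are the stress sensor genes together with Xbp1. The PERK and ATF4 branch has 7 genes, ER-associated degradation (ERAD) 7 and the reticulocalbin family 4. The tumours were grown under the skin of female Balb/c mice from RENCA, a mouse kidney cancer cell line, and bulk RNA was sequenced from the whole tumour. One group of 5 was injected into the tumour with SLR14, a triphosphate stem-loop RNA that activates the RNA sensor RIG-I, carried in lipid nanoparticles. The other group of 5 received PBS, so the effect of the RNA and that of its carrier cannot be told apart. Mice entered the groups at random at a tumour size of 100 to 150 mm3, were injected 3 times at intervals of 48 h, and their tumours were taken 24 h after the last injection. The age of the mice is not given in the sources used here.

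Proteins that enter the secretory pathway fold in the ER with the help of chaperones such as BiP and of enzymes that form disulfide bonds. When unfolded proteins accumulate, the sensors IRE1, PERK and ATF6 start the unfolded protein response. IRE1 splices the Xbp1 messenger RNA, ATF6 is cleaved into a transcription factor, and PERK phosphorylates eIF2alpha, which slows translation and favours production of the transcription factor ATF4. The response raises chaperones, the ERAD machinery that sends misfolded proteins to the proteasome, and, through ATF4, amino acid and cell death genes. Gene counts do not separate spliced from unspliced Xbp1, and none of the protein steps was measured.

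Total counts ranged from 17931895 to 39842608 per tumour. PBS 5 stood apart from the other tumours: it was the highest or lowest PBS tumour for 68.7% of the genes tested, against 25% to 36.5% for the other PBS tumours. Among SLR14 tumours that share was 50.3% for SLR14 2, 44.5% for SLR14 5 and 33% to 36.6% for the others. With genes in 4 equal bins of exon length, the shortest bin (58 to 2352 bases) had a median log2 difference of 0.263 from the other PBS tumours, and the longest bin (6319 to 123179 bases) one of -0.351. In the other 9 tumours the same medians lay between -0.0937 and 0.0943. In edgeR's quasi-likelihood test, 153 genes passed an adjusted p of 0.05, 107 higher and 46 lower in SLR14 tumours. The renal epithelial genes present summed to 2450 to 3070 CPM (counts relative to the library total after TMM scaling) in PBS and 2579 to 3118 CPM in SLR14 tumours. Krt8 and Krt18 gave most of that sum, and Havcr1 was not analysed here. Of the 8 genes 1 passed, Epcam, lower at 0.178 to 1.359 CPM against 2.09 to 6.11 CPM in PBS (edgeR adjusted p = 0.0324). Cdh16, named after its values were seen, was at 315 to 409 CPM in PBS and at 187 to 294 CPM in SLR14 tumours (edgeR adjusted p = 0.0788). The erythroid list set PBS 5 apart (160.0 CPM, other PBS tumours 40.2 to 55.9) and the skeletal muscle list SLR14 2 (1.85 CPM, other SLR14 tumours 88.0 to 199.8). Endothelial genes summed to 156 to 328 CPM and 229 to 324 CPM in the 2 groups, T and NK cell genes to 5.96 to 17.2 CPM and 5.63 to 14.6 CPM, with 0 genes called in these 4 lists. Of the 6 T and NK cell genes present, 3 were tested. Cd4 gave most of their sum, at 5.73 to 15.5 CPM in PBS and 3.68 to 9.475 CPM in SLR14 tumours. Cd3e, named after its values were seen, did not overlap, at 0 to 0.569 CPM in PBS and 0.714 to 1.85 CPM in SLR14 tumours.

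Promoters are given before the fold changes, because binding sites for the factors of this response are well described there. RefSeq promoters on GRCm38.p6, from 250 bases before to 50 after each start site, were at hand for 30 of the 35 genes and not for Atf6, Derl1, Hyou1, Manf and Rcn1. The ER stress response element, the site of ATF6 and the factor NF-Y, was searched on both strands as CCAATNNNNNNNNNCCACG. These letters stood in the promoters of 7 of the 30 genes (23.3%), against 39 of all 32851 promoters (0.119%). Here and below, the listed genes are counted by gene and the background by promoter. The genes were listed for their known part in this response, so these shares describe the list and test nothing. The 7 windows are shown because they hold the letters shared by chaperones and 1 ERAD gene. Capitals mark the CCAAT and CCACG parts, or their reverse complements in Creld2, and every window is written 5′ to 3′ on the strand of its gene.
Hspa5, plus strand, chr2:34772010-34772058: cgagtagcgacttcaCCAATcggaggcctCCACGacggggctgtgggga
Hsp90b1, minus strand, chr10:86705623-86705671: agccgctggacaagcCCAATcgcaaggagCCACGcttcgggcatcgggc
Canx, minus strand, chr11:50325785-50325833: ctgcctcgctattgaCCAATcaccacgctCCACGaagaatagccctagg
Pdia6, plus strand, chr12:17266476-17266524: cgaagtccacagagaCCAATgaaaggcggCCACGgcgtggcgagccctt
Dnajc3, plus strand, chr14:118937812-118937860: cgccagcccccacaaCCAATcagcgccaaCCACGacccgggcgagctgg
Creld2, plus strand, chr15:88819505-88819553: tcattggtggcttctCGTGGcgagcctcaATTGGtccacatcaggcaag
Syvn1, plus strand, chr19:6046517-6046565: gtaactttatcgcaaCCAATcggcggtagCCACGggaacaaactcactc

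Hsp90b1 held the element again in the other orientation, 107 to 89 bases before its start. The related element II is ATTGG and CCACG with 1 base between them, so it shares its CCACG part with the first motif. It stood in the promoters of Herpud1 and Dnajb11, 2 of the 30 genes (6.67%), against 0.0365% of all promoters. The core of the UPR element, TGACGTGG, was in 0 of the 30 windows and in 0.676% of all promoters. The C/EBP-ATF composite element bound by ATF4, TGATGNAA, was in the promoters of Asns, Atf3, Chac1, Herpud1 and Trib3, 5 of the 30 (16.7%), against 3.97% of all. Windows upstream of the start are shown for 3 of the PERK and ATF4 genes, with the fixed letters of the element in capitals.
Asns, minus strand, chr6:7693210-7693247: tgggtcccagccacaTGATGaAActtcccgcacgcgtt
Atf3, minus strand, chr1:191183421-191183458: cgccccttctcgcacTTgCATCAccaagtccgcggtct
Chac1, plus strand, chr2:119351034-119351071: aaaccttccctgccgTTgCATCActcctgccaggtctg

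Rcn3, whose values the results turn on, held none of the 4 motifs in its window. Its 120 bases before the start site are shown for comparison with the windows above.
Rcn3, minus strand, chr7:45092214-45092333: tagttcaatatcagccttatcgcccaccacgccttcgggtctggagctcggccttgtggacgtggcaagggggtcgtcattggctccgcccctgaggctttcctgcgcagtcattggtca

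After SLR14, 1 of the 35 genes fell and 0 rose. The gene that fell was Rcn3, reticulocalbin 3, a calcium-binding protein of the ER lumen. Genes that passed in either direction made up 0.963% of all genes tested, higher genes 0.674% and lower genes 0.29%, so 1 in 35 is not read as a property of the set. The median log2 fold change of the 35 genes was 0.05, beside -0.01 over all genes tested, and 24 of the 35 were above 0, where 48% of all genes were. The 95% interval of the fold change lay within 1.5-fold either way for 29 of the 35 genes, as it did for 59.3% of all genes, and within 2-fold for all but Rcn3. At an unadjusted p under 0.05 in edgeR there were 5 of the 35 genes (10.8% of all genes tested), and DESeq2 called Hyou1 and Rcn3 where it called 2.19% of genes. Limma voom called Rcn3 among the 35 and 0.913% of all genes.

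**Figure D1:**
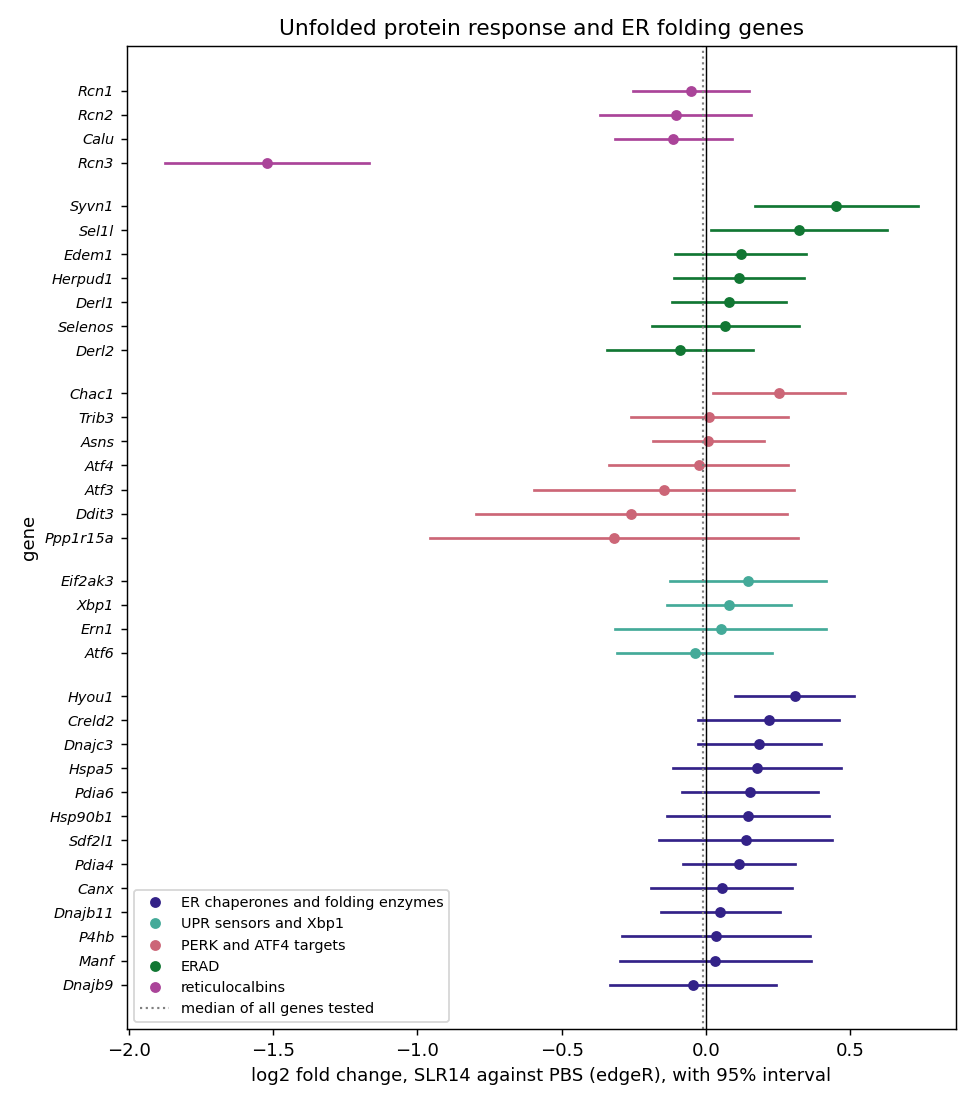
The log2 fold change of SLR14 against PBS tumours (x axis) is plotted for each of the 35 genes (y axis), coloured by role, with lines for the 95% interval and a dotted line at the median of all genes tested. Rcn3 at -1.52 stands alone on the left, and the other 34 genes lie between -0.32 and 0.45.

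Rcn3 (ENSMUSG00000019539) was at 19.5, 23.4, 28.5, 16.2 and 26.7 CPM in PBS tumours 1 to 5. In SLR14 tumours 1 to 5 it was at 6.97, 8.51, 7.77, 9.88 and 6.82 CPM. Every SLR14 tumour was below every PBS tumour, a separation that 1.32% of all genes showed in this direction. Its mean went from 22.9 ± 5.04 to 7.99 ± 1.26 CPM (SD, n = 5), and the log2 fold change was -1.52 (SE 0.16, edgeR quasi-likelihood adjusted p = 0.000627). In bulk tumours, fewer cells that express a gene and less RNA per cell cannot be told apart.

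The other reticulocalbin family members, which like Rcn3 carry EF-hand calcium-binding motifs, did not pass. Rcn2, an ER protein, was at 79.4, 88.4, 83.7, 80.8 and 121 CPM in PBS and at 92.3, 78.3, 87.2, 75.5 and 88.0 CPM in SLR14 tumours. Calu, calumenin, was at 299, 304, 256, 309 and 264 CPM in PBS and at 274, 282, 279, 241 and 249 CPM in SLR14 tumours. Both genes overlapped between groups. Their log2 fold changes were -0.11 (SE 0.12, interval -0.37 to 0.16) and -0.11 (SE 0.09, interval -0.32 to 0.09), with edgeR adjusted p = 0.752 and 0.665. Rcn1 had a log2 fold change of -0.05 (interval -0.25 to 0.15, edgeR adjusted p = 0.839).

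A share within the family needs no scaling between libraries. Of the raw counts of the 4 family genes together, Rcn3 took 4.46%, 5.04%, 6.87%, 3.63% and 5.92% in PBS tumours 1 to 5. It took 1.67%, 2.07%, 1.85%, 2.70% and 1.79% in SLR14 tumours 1 to 5. The groups did not overlap, at 5.18% ± 1.26 and 2.02% ± 0.406 (SD, n = 5). Calu took 64.6% ± 4.45 and 66.4% ± 1.37, Rcn2 20.4% ± 3.67 and 21.1% ± 1.57, and Rcn1 9.76% ± 1.04 and 10.4% ± 0.570.

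Rcn3 lies between Nosip and Fcgrt on the reference assembly. Fcgrt, the neonatal Fc receptor gene, was at 137, 175, 160.5, 111 and 180.1 CPM in PBS tumours, and at 75.6, 148, 81.4, 122 and 92.3 CPM in SLR14 tumours (log2 fold change -0.56, SE 0.19, edgeR adjusted p = 0.273). Nosip, which encodes a partner of nitric oxide synthase, was at 37.2 ± 2.19 and 42.1 ± 2.05 CPM (SD, n = 5; edgeR adjusted p = 0.437). Neither neighbour passed. They are named for their position, after the result for Rcn3 was known, and the strand setting of the counting is not given in the sources used here.

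Rcn3 is linked to collagen production, so fibroblast values stand beside it. The 10 fibroblast genes summed to 887 to 3484 CPM in PBS and 528 to 1602 CPM in SLR14 tumours, and these ranges overlapped. Of the 10, 1 passed the test, Fap, which was at 2.30 CPM or more in every PBS tumour and at 1.15 CPM or less in every SLR14 tumour (edgeR adjusted p = 0.0126), and no gene of the list was at 0. Col1a1, Col1a2 and Col3a1 gave most of the fibroblast sum. Each gene of the list had its highest value in a PBS tumour. The 7 macrophage genes summed to 1617 to 2067 and 1583 to 1997 CPM. The part of these cell types in the Rcn3 result was not tested.

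Chaperones and folding enzymes were the most abundant role, and 0 of 13 passed. Their summed level was 5778 to 7941 CPM in PBS and 6051 to 8169 CPM in SLR14 tumours, and 12 of the 13 log2 fold changes were above 0, with a median of 0.14. Hspa5 encodes BiP, the ER Hsp70 chaperone that holds the sensors inactive. It was at 1302, 1434, 1177, 1243 and 1795 CPM in PBS and at 1643, 1716, 1643, 1631 and 1221 CPM in SLR14 tumours. SLR14 1 to 4 lay close together. SLR14 5 fell among the PBS values and PBS 5 lay above every SLR14 tumour, so the groups overlapped. The log2 fold change was 0.18 (SE 0.14, interval -0.12 to 0.47, edgeR adjusted p = 0.645).

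Hyou1, a large ER chaperone related to Hsp70 that acts as an exchange factor for BiP, had the smallest p of this role. It was at 451, 454, 447, 452 and 379 CPM in PBS and at 534, 567, 578, 553 and 470.0 CPM in SLR14 tumours. All SLR14 tumours were above all PBS tumours, as for 1.92% of all genes tested. The log2 fold change of 0.31 (SE 0.10, interval 0.10 to 0.51) did not pass in edgeR (adjusted p = 0.216). It passed in DESeq2 (0.31, adjusted p = 0.0484), the 1 of 19 alternatives that called it.

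Creld2, an ER-resident disulfide isomerase-like protein induced by ER stress, was at 120.2, 132, 122, 107 and 155 CPM in PBS and at 146, 137, 162, 167 and 129.7 CPM in SLR14 tumours. Dnajc3, a cochaperone of BiP also known as an inhibitor of eIF2alpha kinases, was at 156, 168, 129, 136 and 131 CPM and at 168, 152, 177, 169 and 154 CPM. Both overlapped between groups, with log2 fold changes of 0.22 (SE 0.11) and 0.19 (SE 0.10) and edgeR adjusted p = 0.516 and 0.523. For the remaining chaperones the log2 fold change ranged from -0.04 for Dnajb9, another BiP cochaperone, to 0.15 for Pdia6, a disulfide isomerase, apart from Hspa5 given above. In each of the 13 genes the interval lay within 1.5-fold either way.

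SLR14 5 had the lowest value of its group in 12 of the 13 chaperones, and PBS 5 the highest of its group in 9 and PBS 3 the lowest in 7. Without SLR14 5 the log2 fold change of Hspa5 was 0.26 (edgeR adjusted p = 0.602) and without PBS 5 it was 0.28 (edgeR adjusted p = 0.287). Without PBS 5, Sdf2l1, a stress-induced ER protein that works with BiP cochaperones, went from 0.14 to 0.30 (edgeR adjusted p = 0.0826), and Manf, a secreted ER stress protein, from 0.03 to 0.20 (edgeR adjusted p = 0.455). No chaperone passed in edgeR with any 1 tumour left out.

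**Figure D2:**
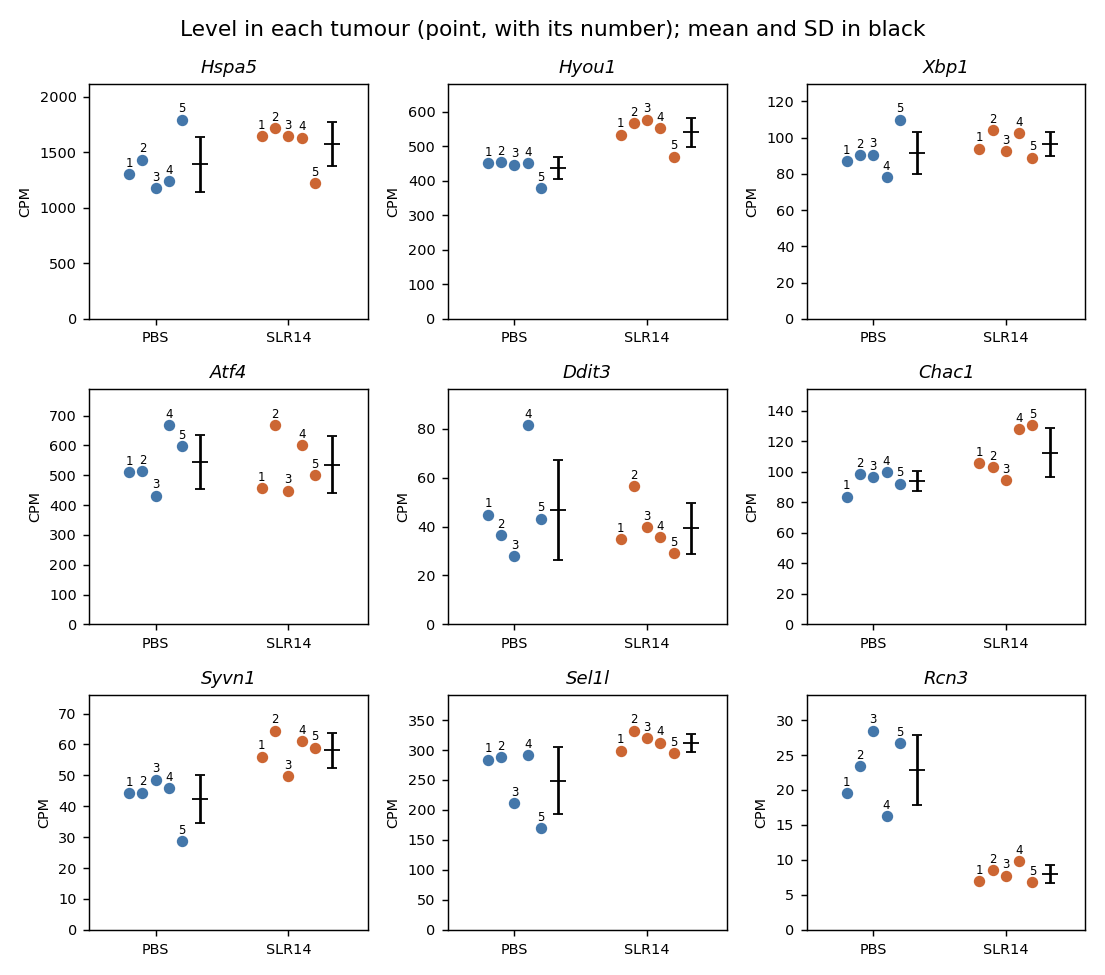
Each panel gives 1 gene, with the CPM of every tumour (y axis, from 0) as a numbered point for PBS and SLR14 tumours, and the mean with SD in black. Rcn3 separates widely, Hyou1, Syvn1 and Sel1l separate narrowly with PBS 5 lowest, and Hspa5, Xbp1, Atf4, Ddit3 and Chac1 overlap.

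Of the 4 genes of the next role, the sensors together with Xbp1, 0 passed and 0 were separated between groups. Xbp1, the transcription factor gene whose messenger RNA IRE1 splices, was at 87.2, 90.3, 90.6, 78.2 and 109.9 CPM in PBS and at 93.9, 104, 92.7, 103 and 88.9 CPM in SLR14 tumours. Eif2ak3, which encodes PERK, was at 61.3, 61.3, 53.9, 64.1 and 39.5 CPM and at 54.7, 67.8, 60.5, 60.8 and 66.3 CPM. Atf6 was at 198, 185, 163, 195 and 123 CPM and at 161, 186, 161, 159.6 and 172 CPM. All 3 genes overlapped, and PBS 5 held the highest PBS value of Xbp1 and the lowest of Eif2ak3 and Atf6. Their log2 fold changes were 0.08 (SE 0.10), 0.15 (SE 0.12) and -0.04 (SE 0.12), with edgeR adjusted p = 0.773, 0.676 and 0.917. Ern1, the IRE1 gene, ranged from 133 in PBS 5 to 283 CPM in PBS 4 and from 196 to 246 CPM in SLR14 tumours (log2 fold change 0.05, edgeR adjusted p = 0.920). The Xbp1 interval of -0.14 to 0.29 lay within 1.5-fold either way, as did those of the other 3. Without PBS 5 the log2 fold change was 0.15 for Xbp1, 0.04 for Eif2ak3, -0.15 for Atf6 and -0.08 for Ern1 (edgeR adjusted p = 0.443, 0.901, 0.495 and 0.855).

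Of the 7 genes of the PERK and ATF4 branch 0 passed, 3 had positive and 4 negative log2 fold changes, and the median was -0.02. Atf4, the transcription factor of the branch, was at 511, 513, 432, 668 and 598 CPM in PBS and at 458, 668, 448, 601 and 501 CPM in SLR14 tumours. The groups covered nearly the same range (log2 fold change -0.02, SE 0.14, interval -0.34 to 0.29, edgeR adjusted p = 0.957). ATF4 is controlled largely at translation, which these counts do not measure.

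Ddit3 encodes CHOP, a transcription factor linked to cell death in prolonged ER stress. It was at 44.9, 36.4, 27.9, 81.5 and 43.3 CPM in PBS and at 34.9, 56.7, 39.7, 35.8 and 29.2 CPM in SLR14 tumours. Ppp1r15a encodes GADD34, which directs the dephosphorylation of eIF2alpha and so ends the translation block. It was at 76.5, 54.1, 41.0, 118 and 43.6 CPM in PBS and at 43.97, 91.7, 44.5, 46.4 and 41.6 CPM in SLR14 tumours. In both genes PBS 4 was the highest PBS tumour and SLR14 2 the highest SLR14 tumour, and the groups overlapped. The log2 fold changes were -0.26 (SE 0.25, interval -0.80 to 0.28) and -0.32 (SE 0.30, interval -0.96 to 0.32), with edgeR adjusted p = 0.710 and 0.695. These intervals and that of Atf3 (-0.60 to 0.30) are the widest of the branch and do not lie within 1.5-fold. Without PBS 4 the log2 fold changes of Ddit3, Ppp1r15a and Atf3 were 0.04, -0.01 and -0.03 (edgeR adjusted p = 0.934, 0.992 and 0.953). Without SLR14 2 they were -0.42, -0.60 and -0.40 (edgeR adjusted p = 0.647, 0.549 and 0.426), and without PBS 5 and SLR14 2 together -0.46, -0.72 and -0.44 (edgeR adjusted p = 0.547, 0.237 and 0.214).

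Chac1, an ATF4 target that degrades glutathione, had the smallest p of the branch. It was at 83.6, 98.4, 96.5, 99.7 and 92.1 CPM in PBS and at 105, 103, 94.5, 128 and 131 CPM in SLR14 tumours. SLR14 3 lay within the PBS values and the other SLR14 tumours above them (log2 fold change 0.25, SE 0.11, interval 0.03 to 0.48, edgeR adjusted p = 0.418). Trib3, a pseudokinase induced by ATF4 and CHOP, and Asns, asparagine synthetase, had log2 fold changes of 0.01 each (edgeR adjusted p = 0.978 and 0.977). The interval of Asns was -0.18 to 0.20.

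The spread within groups differed between the genes of this branch. PBS 4 had the highest PBS value in 6 of 7 genes, PBS 3 the lowest in 5, and SLR14 2 the highest SLR14 value in 5. The highest PBS tumour was 2.92 times the lowest for Ddit3 and 2.88 times for Ppp1r15a, but 1.17 times for Asns and 1.19 times for Chac1. The coefficient of variation in PBS tumours was 48.0% for Ppp1r15a and 43.9% for Ddit3, the 2 highest of the 35 genes, and 5.75% for Asns.

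**Figure D3:**
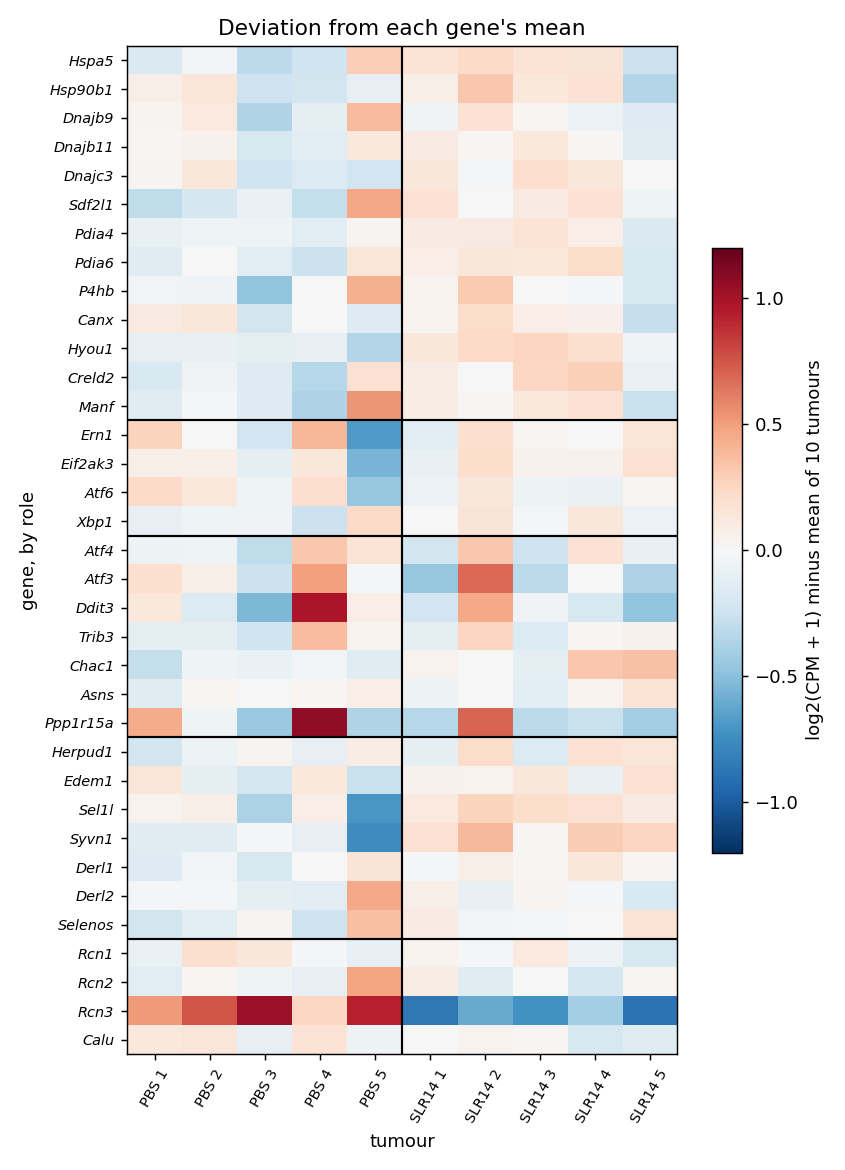
Rows are the 35 genes ordered by role and columns the 10 tumours, and the colour is the difference of log2(CPM + 1) from the mean of the 10 tumours for that gene. Rcn3 is high in the PBS and low in the SLR14 columns, Atf4, Atf3, Ddit3, Trib3 and Ppp1r15a are high in PBS 4 and SLR14 2, and PBS 5 has the highest PBS value for 9 chaperones and the lowest for Ern1, Eif2ak3, Atf6, Sel1l and Syvn1.

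ERAD genes gave 0 of 7 past the threshold, but 2 of them, Syvn1 and Sel1l, separated the groups, with SLR14 above PBS as in 1.92% of all genes tested. Syvn1 encodes HRD1, the ubiquitin ligase of the main ERAD channel. It was at 44.4, 44.5, 48.6, 45.9 and 28.8 CPM in PBS and at 56.1, 64.5, 49.7, 61.0 and 59.0 CPM in SLR14 tumours. Sel1l encodes the adaptor that holds HRD1 in its complex. It was at 284, 288, 212, 292 and 169 CPM in PBS and at 299, 333, 319.6, 312 and 294 CPM in SLR14 tumours. Every SLR14 tumour lay above every PBS tumour in both genes, though for Sel1l the nearest tumours, PBS 4 and SLR14 5, were at 292 and 294 CPM.

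The log2 fold change of Syvn1 was 0.45 (SE 0.13, interval 0.17 to 0.73, edgeR adjusted p = 0.171), the highest of the 35 genes, and that of Sel1l 0.32 (SE 0.14, interval 0.02 to 0.63, edgeR adjusted p = 0.438). PBS 5 held the lowest value of both. Without PBS 5 the values were 0.33 for Syvn1 (edgeR adjusted p = 0.0651) and 0.21 for Sel1l (edgeR adjusted p = 0.421). Without PBS 5 and SLR14 2 together they were 0.29 and 0.18 (edgeR adjusted p = 0.110 and 0.535).

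Edem1, a lectin-like factor that takes misfolded glycoproteins to degradation, was at 232, 193, 183, 229.8 and 175 CPM in PBS and at 218, 216, 231, 197 and 238 CPM in SLR14 tumours. The groups overlapped (log2 fold change 0.12, SE 0.11, edgeR adjusted p = 0.681; 0.07 without PBS 5). Herpud1, Derl1, Derl2 and Selenos, membrane components of the ERAD machinery, had log2 fold changes from -0.09 to 0.11 with edgeR adjusted p from 0.695 to 0.836. As a sum the 7 ERAD genes were at 907 to 1041 CPM in PBS and at 1056 to 1142 CPM in SLR14 tumours, and these ranges did not overlap. The sum weights abundant genes, and it was given no test and no share of such sums over all genes. Its mean went from 977 to 1098 CPM, and that of Sel1l, already separated by itself, from 249 to 312 CPM. Of the marker lists, that of neutrophils separated the groups too, at 14.3 to 22.8 CPM in PBS and at 25.4 to 58.6 CPM in SLR14 tumours. In edgeR 3 of its 6 tested genes were called higher, as were 0.674% of all genes tested. Csf3r and Mmp9 gave most of the PBS sum, and both overlapped between groups. S100a8 and Mmp8, at 1.01 CPM or less in every PBS tumour, did not overlap. Of 11 plasma and B cell genes, which mark cells with a large ER, 4 were present, and their sum was 766 to 963 CPM and 965 to 1056 CPM. Nearly all of it was Sdc1, a gene also of epithelium (753 to 954 CPM and 956 to 1052 CPM, edgeR adjusted p = 0.436), while Cd79a, Cd79b and Ighm were low and not at 0. Their part in the ERAD and chaperone values was not tested.

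The median log2 fold change was 0.14 for chaperones, 0.07 for sensors with Xbp1 and -0.02 for PERK and ATF4 genes. It was 0.11 for ERAD and -0.11 for reticulocalbins, and the differences between roles were not tested. The 7 genes whose promoters held the ER stress response element had log2 fold changes from 0.05 for Canx, calnexin, to 0.45 for Syvn1, all 7 above 0 with a median of 0.18. The 23 others with a promoter sequence had a median of 0.04, with 14 above 0. Apart from Syvn1 the 7 are chaperones, a role in which 12 of 13 genes were above 0. These medians therefore do not separate the element from the role. The 5 genes with the composite element had a median of 0.01. No gene with either element passed in edgeR, Rcn3 is among those without, and these medians are a description.

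Levels were compared between genes per kilobase of exon. P4hb, a disulfide isomerase that is also a subunit of collagen prolyl hydroxylase, was highest, with 643 ± 142 CPM per kilobase in the PBS group and 659 ± 85.9 in the SLR14 group (SD, n = 5). Hspa5 followed at 329 ± 58.0 and 371 ± 47.0, then Atf4 at 231 ± 38.5 and 227 ± 40.5. Pdia6 at 190.0 ± 20.8 and Hsp90b1, the ER Hsp90 chaperone, at 188 ± 22.5 CPM per kilobase in PBS did not differ beyond their spread, but with the longest transcript as length they stood at 327 and 236 CPM per kilobase. The sensors were far lower, from 28.1 ± 3.57 for Xbp1 and 26.2 ± 7.29 for Ern1 to 18.7 ± 3.33 for Atf6 and 9.30 ± 1.66 CPM per kilobase for Eif2ak3 in PBS. Rcn3 ranked 31st of 35 in PBS at 13.3 ± 2.94 and last in SLR14 tumours at 4.65 ± 0.732 CPM per kilobase, while the first 7 places were held by the same genes in both groups.

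**Figure D4:**
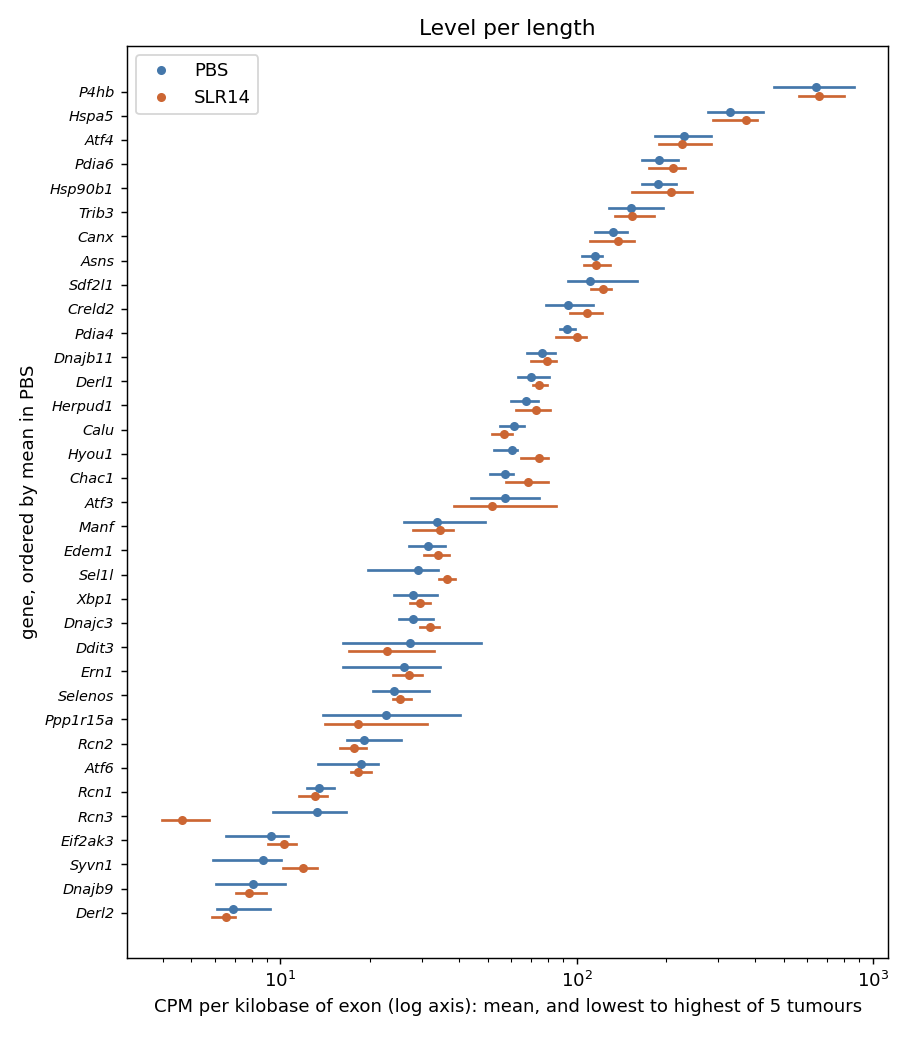
The level of each gene in CPM per kilobase of exon (x axis, log scale) is shown for PBS and SLR14 tumours as a mean, with a line from the lowest to the highest of 5 tumours, and genes are ordered by their PBS mean. P4hb is at the top and Derl2 at the bottom, and the lines of the groups overlap except for Rcn3, Hyou1, Syvn1 and Sel1l.

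Wider lists of the same pathways gave 0 calls in edgeR, in 8 lists that hold between 7 and 31 tested genes. These lists are other ER folding genes (21 tested), other ERAD genes (16), translocon and signal peptide genes (17), ER to Golgi transport (18), other ATF4 targets and amino acid genes (31), eIF2alpha kinases and phosphatase genes (7), collagen folding genes (14) and cytosolic heat shock genes (14). At an unadjusted p under 0.05 in edgeR they held 1, 0, 0, 2, 1, 1, 2 and 4 genes, beside 10.8% of all genes tested. DESeq2 called 1 each in the folding, ATF4 and heat shock lists, and 2.19% of all genes. Median log2 fold changes lay between -0.05 for collagen folding and 0.11 for ER to Golgi transport. Dnajc3, 1 of the 35 genes, is counted again in the eIF2alpha list.

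Each list is represented by its gene with the smallest p. Txndc11, a thioredoxin domain protein of the ER, went from 58.0 ± 1.98 to 69.1 ± 3.72 CPM (SD, n = 5) with the groups apart, and was called by DESeq2 (adjusted p = 0.0232) but not by edgeR (adjusted p = 0.197). Cars1, cysteinyl-tRNA synthetase, was at 224 ± 16.2 and 273 ± 17.5 CPM and likewise passed in DESeq2 (adjusted p = 0.0433) but not in edgeR (adjusted p = 0.223). Eif2ak2, the double-stranded RNA-activated eIF2alpha kinase PKR, was at 59.2 ± 11.02 and 75.0 ± 8.33 CPM (log2 fold change 0.34, edgeR adjusted p = 0.369). Kdelr2, a receptor that returns chaperones to the ER, was at 115 ± 9.54 and 136.5 ± 10.2 CPM and Plod3, a collagen lysyl hydroxylase, at 182 ± 21.7 and 226 ± 32.0 CPM (edgeR adjusted p = 0.340 for both). Nploc4, a cofactor of the ERAD ATPase, and Sec11c, a signal peptidase subunit, had edgeR adjusted p = 0.564 and 0.517.

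Hspa1b, the inducible cytosolic Hsp70, had the largest log2 fold change of these 8 genes. It was at 78.5, 79.8, 101, 82.9 and 54.7 CPM in PBS and at 121, 178, 122, 197 and 97.0 CPM in SLR14 tumours, where SLR14 5 alone fell below the highest PBS tumour. The log2 fold change was 0.85 (SE 0.20, edgeR adjusted p = 0.0740). It passed in DESeq2 (adjusted p = 0.00407) and, without SLR14 5, in edgeR (0.96, adjusted p = 0.0420), where Hspa1a, a near-identical copy named after its values were seen, passed too (0.97, adjusted p = 0.0388). Reads of the copies may have been shared between them. SLR14 5 also had the lowest value of its group in 12 of the 13 ER chaperones. P4ha3, a collagen prolyl hydroxylase subunit named after its values were seen, had a larger difference in the other direction, its mean going from 1.87 to 0.972 CPM with overlap between groups (log2 fold change -0.92, SE 0.39, edgeR adjusted p = 0.421).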

How the data were processed

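Raw counts per gene, as deposited by the authors, hold 1 column per tumour, matched to samples through their descriptions. The normalized signal deposited by the authors is the same counts divided by 1 factor per tumour. The tools named in the submitters' processing notes are STAR, Trim Galore 0.6.7 and DESeq2 1.36.0, with the build mm39. The counting program, strand setting and annotation were not given in the sources used here. Genes without a symbol (74, 0.0295% of counts) were kept, as each has an identifier.

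Genes were filtered with filterByExpr (minimum count 10), scaled with TMM and tested with edgeR 4.0.16's quasi-likelihood test in R 4.3.3, with Benjamini-Hochberg adjustment at 0.05 over all genes tested. The SE is the absolute log2 fold change divided by the square root of F, and 95% intervals use the test's degrees of freedom. Alternatives used DESeq2 1.42.0 and limma 3.58.1, the latter also on log2(normalized value + 1). The fit was tested on simulated data. No pair of tumours of a group looked like a repeat of 1 library (20 pairs, chi-square divided by its degrees of freedom from 8.15 to 146). Exon lengths came from GENCODE M21 (GRCm38), matched by identifier for 96.2% of genes, so no mm39 coordinates are given.

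The genes, roles, lists, tests and the alternative without PBS 5 and SLR14 2 were chosen with earlier results of these data known. Every tumour's value is given for called genes, for the 3 genes of each role with the smallest p, and for Hspa5, Xbp1, Atf4 and Ddit3. From each wider list, called genes or the gene with the smallest p are named, and marker lists are given as sums, with counts of called genes. Fap, Epcam, Cdh16, Sdc1, Cd4, Cd3e, Hspa1a, P4ha3 and the neighbours of Rcn3 were named outside this rule, after their values were seen. So were the genes that gave most of the renal, fibroblast and neutrophil sums, and S100a8 and Mmp8. Each p-value sets the group difference against the spread between mice, 5 per group, with variance estimates that draw on all genes.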

Additional observations from a re-analysis of the deposited data

Results flagged for a closer look

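Of 70 groups of 5 values (35 genes in 2 groups), 8 held a tumour far from the other 4, by a rule that chance meets in about 1 of 20 groups. PBS 5 was that tumour in 5 of them. It was high for Sdf2l1 (176 CPM, others 103 to 121), Derl2 (74.3 CPM, others 49.1 to 53.3) and Rcn2 (121 CPM, others 79.4 to 88.4). It was low for Hyou1 (379 CPM, others 447 to 454) and Syvn1 (28.8 CPM, others 44.4 to 48.6). SLR14 5 was low for Hspa5 (1221 CPM, others 1631 to 1716) and Pdia4 (204 CPM, others 244 to 258). SLR14 2 was high for Ppp1r15a (91.7 CPM, others 41.6 to 46.4). In PBS 5, 20 of the 35 genes were above the median of the other PBS tumours, with a median exon length of 2642 bases, and 15 were below it, with a median of 4859 bases.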

How the results depend on the processing

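Over 19 alternatives, Rcn3 stayed lower and past the threshold in each, with log2 fold changes from -1.62 to -1.43 and an adjusted p of at most 0.00968, the value with the replicate number as a block. The median of the 35 genes ranged from 0.0141 to 0.0906. DESeq2 called 407 genes in all, with 1 of the 35 higher (Hyou1, 1 chaperone) and 1 gene each in the other folding, ATF4 target and heat shock lists. Against 153 genes, leaving out 1 tumour gave 69 to 194 in all, with the lowest counts when PBS 1 (69), SLR14 3 (75), SLR14 1 (77), PBS 3 (78) or SLR14 4 (89) was left out. It gave 0 to 2 cytosolic heat shock genes, 2 without SLR14 5.

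Some genes changed sign, with no call on either side, most of them near 0 and Ddit3 from -0.26. With upper-quartile factors P4hb was at -0.00743, Manf at -0.0146, Trib3 at -0.0238 and Asns at -0.0285. Without PBS 5 and SLR14 2 together Dnajb9 was at 0.00319, Canx at -0.0340, Ern1 at -0.124, Trib3 at -0.0534, Derl2 at 0.0424 and Rcn2 at 0.0400. With 1 tumour left out the ranges were -0.0462 to 0.198 for Manf, -0.145 to 0.0140 for Atf6, -0.0540 to 0.119 for Trib3, -0.0317 to 0.0415 for Asns, -0.0566 to 0.158 for P4hb, -0.114 to 0.0612 for Atf4, -0.422 to 0.0403 for Ddit3, -0.126 to 0.0545 for Dnajb9, -0.0842 to 0.174 for Ern1, -0.13 to 0.0302 for Derl2 and -0.149 to 0.0163 for Rcn2. The cause was not tested.

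The replicate number as a block gave 78 genes in all and changed no call among the 35. Deviations of same-numbered tumours correlated with r from -0.250 to 0.138, and 1 of 5 PBS tumours correlated best with its own number. No pairing by number was seen, and 5 pairs cannot exclude one. With the longest transcript as length, 19 of 35 PBS levels moved by more than 1 SD, and Pdia6 (327 CPM per kilobase) stood above Atf4 (269.5). Rcn3 rested on 143 to 756 raw counts per tumour.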
